A study of Mus musculus with 6 samples.

Results

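Polymorphonuclear myeloid-derived suppressor cells (PMN-MDSC) are neutrophils that arise in cancer and suppress T cell responses, and they share most of their surface with ordinary neutrophils. The 8 genes described here encode surface or secreted proteins that have been proposed to mark PMN-MDSC: Cd84, Cd244, Cd38, Wfdc17, Wfdc18, Trem1, Olr1 and Slc27a2. They were selected by name from a table of 38887 gene identifiers, and the selection was made with results of these data known, so their levels over the groups are a description and carry no test. All 8 had a row in the table, with Cd244 listed in the annotation as Cd244a, and 7 of them were among the 12259 genes with enough counts to be tested. Slc27a2 was the member that was not.

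RNA was sequenced from Ly6G-positive bone marrow (BM) neutrophils of naive mice and of tumor-bearing mice 1 and 3 weeks after intravenous injection of LL2 cells, a Lewis lung carcinoma line that carries luciferase and forms lesions in the lung. These groups are called naive, one-week LL2 and three-week LL2 mice, and each had 2 libraries that the labels number as replicate mice. The cells were isolated with anti-Ly6G beads from the marrow of leg bones, and the study's methods name C57BL/6 mice, 6 to 8 weeks old and of both sexes, without tying strain, age or sex to a library. Since n = 2 in each group, p-values measure only the spread between these libraries. Each library held between 11994158 and 14127919 deposited expected counts, so that 3 counts, taken as the floor, stood for between 0.212 and 0.25 CPM (counts scaled by library size), and this floor covers counting error only. CPM below are scaled between libraries by the TMM method, and a log2 fold change is a difference of fitted log2 CPM with its standard error.

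The label of the cells was compared with marker genes of their type. Transcripts of S100a8, S100a9, Mmp8, Retnlg, Csf3r and Cxcr2, all of neutrophils, were abundant, and the 8 neutrophil markers summed to between 236000 and 317000 CPM in every library. Ly6g, the gene of the antigen used for isolation, had only 0.491 to 2.14 CPM in the 6 libraries. In bulk RNA of this kind, fewer cells of a type and less RNA per cell cannot be told apart.

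In background terms, CD84 and CD244 (also called 2B4) are receptors of the SLAM family, of which CD84 binds itself and CD244 binds CD48. CD38 is an ectoenzyme that consumes NAD to make ADP-ribose and cyclic ADP-ribose. WFDC17 and WFDC18 are small secreted proteins with a WAP domain, the fold of protease inhibitors such as SLPI. TREM-1 is a receptor that amplifies inflammatory signals through the adaptor DAP12, encoded by Tyrobp. OLR1, or LOX-1, binds oxidized low-density lipoprotein and has been used to isolate human PMN-MDSC from blood, and SLC27A2, or FATP2, carries long-chain fatty acids into the cell.

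In three-week LL2 mice, 4 of the 8 genes were far above both other groups: Wfdc17, Cd244, Cd38 and Wfdc18. Olr1 was lower, Trem1 and Cd84 differed from the naive level by at most 1.5-fold in both tumor-bearing groups, and Slc27a2 was at or near 0 in every library. In one-week LL2 mice no member had a called increase. Of the 7 tested members, 4 were called higher and 1 lower in three-week LL2 than in naive mice, where 21.4% of all tested genes were called (12.0% higher and 9.42% lower). Against one-week LL2 mice, 5 were called higher and 1 lower at 3 weeks, beside 22.5% of all tested genes (12.9% higher and 9.57% lower). Between one-week LL2 and naive mice, 0 were called higher and 2 lower, Trem1 and Wfdc18, beside 7.99% of all tested genes (4.23% higher and 3.76% lower), with edgeR at an adjusted p under 0.05. At an unadjusted p under 0.05, 0 members were higher and 3 lower at 1 week, and DESeq2 called 0 higher and 1 lower. The genes were picked with these contrasts in view, so nothing is read from the counts against that background. The median log2 fold change of the 7 genes was 3.26 at 3 weeks and -0.57 at 1 week against naive mice, and 3.11 between the weeks, while over all tested genes it was 0.03, 0.01 and -0.02. Placing Wfdc18 at its bound against groups at 0 left these medians as they were.

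**Figure D1:**
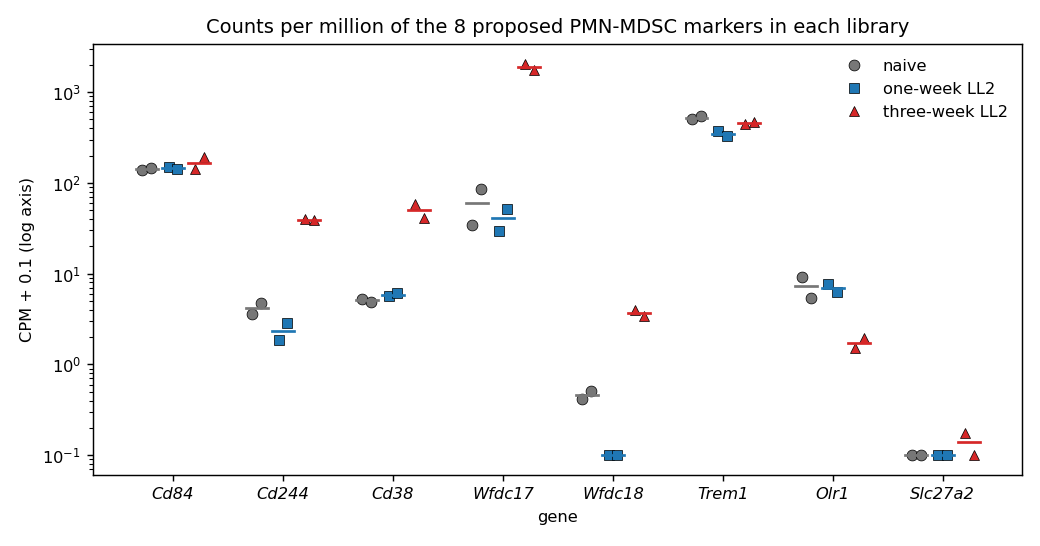
Each point is 1 library, with the gene on the x axis and CPM plus 0.1 on a log y axis, and short lines mark group means (grey circles, naive; blue squares, one-week LL2; red triangles, three-week LL2; n = 2 each). The three-week libraries lie above all others for Cd244, Cd38, Wfdc17 and Wfdc18 and below all others for Olr1, while Cd84 shows no separation and Slc27a2 sits at the offset apart from 1 count.

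Among the secreted members, Wfdc17 (ENSMUSG00000069792, chr11:83703991-83706268, plus strand of GRCm38) gave the strongest signal. In naive mice the 2 libraries had 434 and 1050 counts, or 34.3 and 86.0 CPM. One-week LL2 mice had 29.4 and 51.7 CPM, and three-week LL2 mice had 2060 and 1750 CPM from 26584 and 22725 counts. The naive and one-week libraries overlapped, and both three-week libraries lay far above all 4 of them. The log2 fold change was 4.99 ± 0.36 (SE) at 3 weeks against naive mice, 31.7-fold, and 5.56 ± 0.37 against one-week LL2 mice, 47.1-fold. At 1 week against naive mice it was -0.57 ± 0.32 and was not called. With no filter on low counts it was called at the same value, and it turned to 0.23 without the second naive library. The change at 3 weeks against naive mice rested partly on the spread of the naive libraries and was 4.44 without the first and 5.80 without the second of them. Per length of exon, in TPM (counts divided by exon length and scaled to a common total), Wfdc17 ranked 630 and 300 among all genes in the naive libraries and 11 and 14 in the three-week libraries. It then took 0.188% and 0.163% of all counts.

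Wfdc18 (ENSMUSG00000000983, chr11:83709015-83711348, plus strand) lies 2747 bases beyond Wfdc17 on the same strand and was found at a much lower level. Naive libraries had 4 and 5 counts, one-week libraries had none, and three-week libraries had 50 and 43 counts, or 3.88 and 3.31 CPM. The three-week libraries were thus above all others, and the gene entered the test only through them. Against naive mice its log2 fold change was 3.28 ± 0.55, 9.69-fold. Against one-week LL2 mice it was at least 16.9-fold higher, computed with the floor of 3 counts in each one-week library. The one-week level was at least 1.71-fold lower than the naive one, a bound that rests on 4 and 5 naive counts, and its call was lost with DESeq2 and without any single library.

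The pair is shown by its promoters because both genes were higher at 3 weeks and lie side by side. The transcripts of Wfdc17 and Wfdc18 were 77.6% identical over 544 aligned columns, and their longest shared stretch was 30 bases, so reads longer than that could be placed on one gene. The 2 promoters also aligned, with 145 identical bases in 229 columns (63.3%). In the RefSeq sequences below (GRCm38.p6, plus strand, 250 bases before to 50 after the start site, 5′ to 3′), capitals mark the aligned stretch.
Wfdc17 (chr11:83703806-83704105): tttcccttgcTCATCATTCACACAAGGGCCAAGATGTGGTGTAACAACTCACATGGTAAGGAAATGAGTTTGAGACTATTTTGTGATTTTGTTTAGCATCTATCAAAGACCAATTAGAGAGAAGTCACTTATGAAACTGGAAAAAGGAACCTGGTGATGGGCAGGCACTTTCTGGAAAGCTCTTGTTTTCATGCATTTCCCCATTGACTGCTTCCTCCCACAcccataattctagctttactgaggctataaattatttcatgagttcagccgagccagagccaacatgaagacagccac
Wfdc18 (chr11:83708754-83709053): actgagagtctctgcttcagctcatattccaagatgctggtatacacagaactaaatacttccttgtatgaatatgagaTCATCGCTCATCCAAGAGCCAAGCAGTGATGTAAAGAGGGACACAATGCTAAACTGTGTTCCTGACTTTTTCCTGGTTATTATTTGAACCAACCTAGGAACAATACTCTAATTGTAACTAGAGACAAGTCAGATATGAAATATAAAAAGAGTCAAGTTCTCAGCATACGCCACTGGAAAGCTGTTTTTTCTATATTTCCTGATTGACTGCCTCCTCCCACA
The aligned stretch ran from position -240 to -29 in Wfdc17 and from -171 to 50 in Wfdc18. By the RefSeq start sites it ended 29 bases before that of the first gene and beyond that of the second. The annotated gene start of Wfdc17 given above, 83703991, lies upstream of its RefSeq start. Counted from the annotated starts, the stretch ended inside both genes.

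Other WAP domain genes of the tissue were compared on the TPM scale, which allows levels of different genes to be set side by side. Wfdc21, the next tested neighbour of the pair, had 6210 and 6410 TPM in naive, 8120 and 7280 in one-week LL2 and 9390 and 7620 in three-week LL2 mice. Slpi, which encodes an inhibitor of neutrophil elastase, had 1800 and 2300, 2520 and 2180, and 1860 and 2040 TPM. Wfdc17 had 93.5 and 211 TPM in naive, 77.9 and 131 in one-week LL2 and 4600 and 4020 in three-week LL2 mice, so that it went from below Slpi to above it. Its share of the summed TPM of these 3 genes and Wfdc18 was 1.15% and 2.36% in naive, 0.727% and 1.36% in one-week LL2 and 29.0% and 29.4% in three-week LL2 mice. Within the list of WAP domain inhibitors and neutrophil serine proteases, 6 of 16 genes were tested besides the members, and at 3 weeks against naive mice 5 were called higher and 0 lower. The median log2 fold change of all 6 was 1.53. The 5 called higher were Wfdc21 (log2 fold change 0.62 ± 0.13, adjusted p = 0.00467), Serpinb1a, which inhibits neutrophil proteases (0.53 ± 0.12, adjusted p = 0.00578), and the primary granule protease genes Prtn3 (3.23 ± 0.26, adjusted p = 3.52e-06), Ctsg (2.91 ± 0.31, adjusted p = 3.58e-05) and Elane (2.44 ± 0.38, adjusted p = 0.000558). Slpi was not called (log2 fold change 0.11 ± 0.15, adjusted p = 0.667). Over all tested genes, 12.0% were called higher and 9.42% lower at 3 weeks against naive mice, and 4.23% and 3.76% at 1 week. At 1 week against naive mice 0 of the 6 were called in either direction by edgeR or DESeq2, with 2 higher and 0 lower at an unadjusted p under 0.05. At 3 weeks that count was 5 higher and 0 lower, as it was with DESeq2. The other WAP genes in the list, among them Wap, Wfdc1 and Wfdc12, had at most 0.0819 CPM as a group mean.

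**Figure D2:**
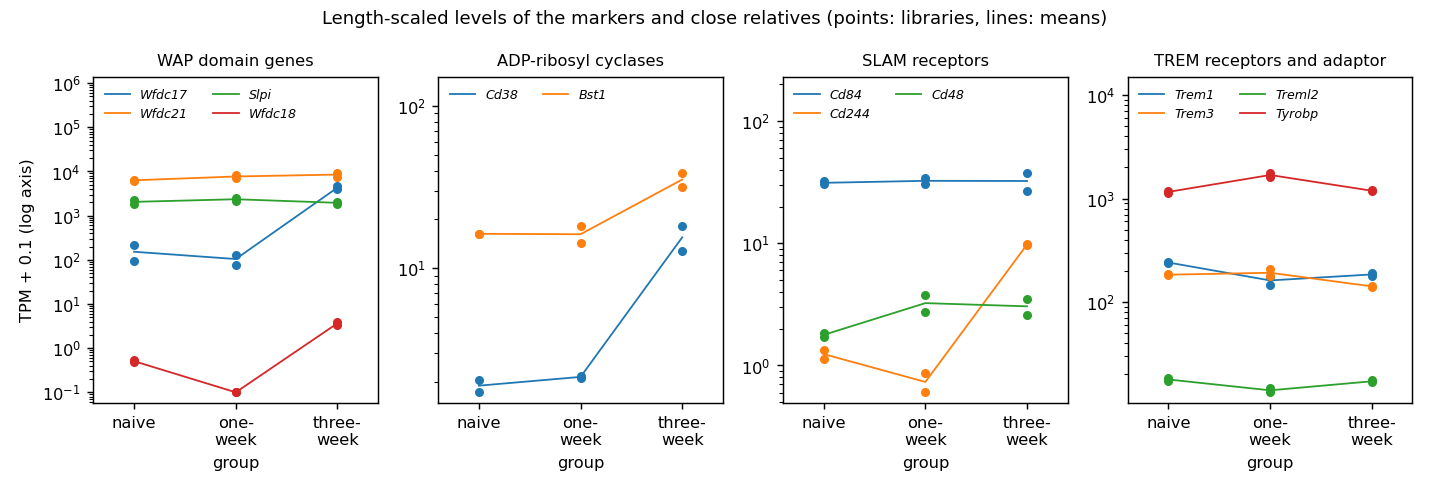
Each panel plots TPM plus 0.1 on a log y axis for the 3 groups, with points for libraries (n = 2 per group) and lines through group means. Wfdc17 crosses Slpi at 3 weeks, Cd38 stays below Bst1 in all groups while rising towards it, Cd244 approaches Cd84, and Trem1 and Trem3 stay between 140 and 242 TPM.

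Prtn3, Ctsg and Elane are transcribed in early precursors of neutrophils. The marker list of that stage was higher at 3 weeks, as were Wfdc17, Wfdc18, Cd244 and Cd38. At 1 week its 5 genes had log2 fold changes of 0.4 to 1.06 against naive mice, none of them called. Those of Cd244, Wfdc17 and Cd38 were -0.87, -0.57 and 0.19, also not called, and Wfdc18 had no counts. The 5 early precursor markers summed to 56.6 and 47.2 CPM in naive, 55.5 and 94.0 CPM in one-week LL2 and 257 and 354 CPM in three-week LL2 mice, and 5 of 5 were called higher at 3 weeks against naive mice. The 5 late precursor markers, such as Camp and Ltf, summed to 40900 and 47000, 45100 and 44300, and 25600 and 29900 CPM, and 4 of 5 were called lower. Of all tested genes, 12.0% were called higher and 9.42% lower at 3 weeks against naive mice. The part of maturation stage in the levels of the members was not tested. Wfdc17 is also known from activated macrophages. The 12 monocyte and macrophage markers summed to 1760 and 1730 CPM in naive, 1680 and 1720 CPM in one-week LL2 and 2230 and 1660 in three-week LL2 mice. The groups overlapped, and 1 of the 12 was called higher at 3 weeks, the gene F13a1. The part of macrophages in the Wfdc17 level was not tested. In the remaining lists the sums over the libraries ran from 7.14 to 29.5 CPM for T cell, 67.3 to 85.5 CPM for dendritic cell, 7.21 to 71.7 CPM for basophil and mast cell, 45.9 to 65.8 CPM for eosinophil, 141 to 424 CPM for erythroid and 51.8 to 78.2 CPM for endothelial and stromal markers.

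Cd244 (ENSMUSG00000004709, chr1:171559193-171609746, plus strand) was the more changed of the SLAM receptors. Its CPM was 3.48 and 4.67 in naive mice, 1.74 and 2.76 in one-week LL2 mice and 39.5 and 38.6 in three-week LL2 mice. Both one-week libraries were below both naive ones, and both three-week libraries were above all others and close to each other, with 509 and 502 counts. The log2 fold change was 3.26 ± 0.21 against naive mice, 9.58-fold, and 4.13 ± 0.22 against one-week LL2 mice, 17.5-fold. That between one-week LL2 and naive mice was -0.87 ± 0.26 and was not called, but with no filter on low counts it was -0.86 and was called. Ly9, which overlaps Cd244 on the other strand, had between 8 and 27 counts per library, and whether the counting used strand is not given in the sources used here. CD244 is best known from NK cells. The 8 NK cell markers summed to 3.17 and 4.09 CPM in naive, 3.60 and 4.70 CPM in one-week LL2 and 1.63 and 1.69 CPM in three-week LL2 mice. Prf1 was at 0 in all libraries and Ncr1 at 0 in the three-week libraries. The part of NK cells in the Cd244 level was not tested.

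The promoter of Cd244 is shown because it held most of the motif matches among the members. Capitals mark 3 sites, from left to right a C/EBP match on the minus strand at -141, an AP-1 match at -122 and the palindrome CACGTG, which holds the hypoxia response element core ACGTG on both strands at -63 and -64.
Cd244 (chr1:171558943-171559242, GRCm38.p6, plus strand): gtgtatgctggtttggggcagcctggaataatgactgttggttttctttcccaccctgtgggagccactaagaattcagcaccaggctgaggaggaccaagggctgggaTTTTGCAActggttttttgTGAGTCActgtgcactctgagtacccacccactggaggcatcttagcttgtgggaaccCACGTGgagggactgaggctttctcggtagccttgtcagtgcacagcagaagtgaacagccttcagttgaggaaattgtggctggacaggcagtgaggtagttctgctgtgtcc
All 8 members had a promoter in the RefSeq table, and 6 short motifs were searched on both strands. Of 27025 promoters of the same length, TTGCNNAA (C/EBP) was in 10.8%, TGANTCA (AP-1) in 7.93%, ACGTG in 19.7%, GGNNTTTCC (NF-kappaB) in 5.72%, GAGGAAGT (PU.1) in 3.28% and TTCCNGGAA (STAT) in 1.15%. AP-1 matches were also present at -229 in Cd84 and at -60 in Olr1, and ACGTG at -209 in Slc27a2. The windows of Cd38, Wfdc17, Wfdc18 and Trem1 held none of the 6 letter patterns. These are matches of letters in a window and describe no binding.

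Cd84 (ENSMUSG00000038147, chr1:171839697-171890718, plus strand), the other SLAM receptor, differed little. It had 139 and 146 CPM in naive, 151 and 143 CPM in one-week LL2 and 141 and 193 CPM in three-week LL2 mice, so that the groups overlapped in every comparison. The log2 fold change was 0.05 ± 0.14 at 1 week and 0.24 ± 0.14 at 3 weeks against naive mice and 0.19 ± 0.14 between the weeks. The last of these turned to -0.02 when libraries were scaled by their totals only and to -0.05 without the second three-week library. The change at 3 weeks against naive mice was 0.46 without the first three-week library and -0.0 without the second. In TPM, Cd84 stood 31 and 24.3 times above Cd244 in naive mice, 67.6 and 40.4 times in one-week LL2 mice and 2.78 and 3.90 times in three-week LL2 mice. CD84 is also carried by platelets and B cells. The 7 platelet lineage markers summed to between 56.9 and 105 CPM and the 13 B lineage markers to between 25.6 and 154 CPM over the libraries, both lowest at 3 weeks, and their part in the Cd84 level was not tested.

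Of the other SLAM receptors and their adaptors, 8 of 14 genes were tested, and 0 were called higher and 1 lower at 3 weeks against naive mice, with a median log2 fold change of -0.06. The one called was Ptpn6, which encodes the phosphatase SHP-1 (-0.41 ± 0.11, adjusted p = 0.0185, both three-week libraries lower). Cd48, whose product is the ligand of CD244, had 1.74 and 1.62 TPM in naive, 3.65 and 2.62 in one-week LL2 and 2.48 and 3.41 TPM in three-week LL2 mice (log2 fold change 0.99 at 3 weeks, adjusted p = 0.0882). The adaptor gene Sh2d1a and its relative Sh2d1b2 had at most 0.186 CPM as a group mean. At an unadjusted p under 0.05, 1 was higher and 2 lower. In both other comparisons 0 of the 8 were called in either direction by edgeR or DESeq2, with 1 higher at 1 week and 1 lower between the weeks at an unadjusted p under 0.05. The shares of all tested genes called were 21.4% at 3 weeks and 7.99% at 1 week against naive mice and 22.5% between the weeks. Cd84 and Cd244 lie in one cluster of chromosome 1, and their SLAM neighbours Ly9 and Slamf1 were low, with at most 1.97 and 0.842 CPM as a group mean.

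Cd38 (ENSMUSG00000029084, chr5:43868553-43912375, plus strand) had 5.22 and 4.83 CPM in naive, 5.54 and 5.97 CPM in one-week LL2 and 58.8 and 40.5 CPM in three-week LL2 mice. The 4 naive and one-week libraries lay close together and the three-week libraries were both well above them. The log2 fold change was 3.30 ± 0.21 against naive mice, 9.85-fold, 3.11 ± 0.20 against one-week LL2 mice, 8.62-fold, and 0.19 ± 0.23 at 1 week. An intronic transcript on the same strand, Gm16014, had 0 to 2 counts in naive and one-week libraries and 16 and 13 counts in three-week libraries, so that reads shared with it were few beside the 758 and 526 counts of Cd38. CD38 is also found on B lineage cells. The 13 B lineage markers summed to 97.3 and 154 CPM in naive, 97.1 and 91.2 CPM in one-week LL2 and 38.2 and 25.6 CPM in three-week LL2 mice. All 13 of the tested markers were called lower at 3 weeks against naive mice, beside 9.42% of all tested genes. The part of B lineage cells in the Cd38 level was not tested.

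Bst1, which encodes the related ADP-ribosyl cyclase CD157, lies 24567 bases from Cd38. It had 16.1 and 16.2 TPM in naive, 18.1 and 14.2 TPM in one-week LL2 and 38.7 and 31.5 TPM in three-week LL2 mice (log2 fold change 1.31 ± 0.15 at 3 weeks against naive mice, adjusted p = 5.79e-05). Cd38 had 1.95 and 1.62, 2.01 and 2.07, and 18.0 and 12.7 TPM, so that the ratio of Cd38 to Bst1 was 0.121 and 0.0998 in naive mice and 0.464 and 0.404 in three-week LL2 mice. Fbxl5 beyond it, whose product controls iron metabolism, was also higher (1.2 at 3 weeks, adjusted p = 1.44e-05). Of the list of NAD metabolism, 17 of 21 genes were tested, and 3 were called higher and 5 lower at 3 weeks against naive mice, with a median log2 fold change of -0.41. Besides Bst1, those higher were Naprt, which makes NAD from nicotinic acid (2.53 ± 0.43, adjusted p = 0.00109), and the deacetylase Sirt2 (0.76 ± 0.13, adjusted p = 0.000854). Nt5e, which encodes the ectonucleotidase CD73 that makes adenosine, fell from 11.5 ± 1.60 CPM in naive mice to 2.20 ± 0.915 CPM (-2.39 ± 0.30, adjusted p = 0.000125). Trpm2, a cation channel gated by ADP-ribose, was lower as well (-0.78 ± 0.13, adjusted p = 0.00101), and so were Nampt, Sirt1 and Parp1. In one-week LL2 mice 0 of the 17 genes were called higher and 1 lower, both by edgeR and by DESeq2, and the same numbers had an unadjusted p under 0.05. Called shares of all tested genes were 12.0% higher and 9.42% lower at 3 weeks, and 4.23% and 3.76% at 1 week.

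Trem1 (ENSMUSG00000042265, chr17:48232768-48246924, plus strand) was the most abundant member per length in naive and one-week LL2 mice. It had 499 and 546 CPM in naive, 370 and 328 CPM in one-week LL2 and 450 and 464 CPM in three-week LL2 mice. Both one-week libraries were below all others, and the three-week libraries lay between the 2 groups. The log2 fold change was -0.58 ± 0.11 at 1 week against naive mice, 1.5-fold lower, and 0.39 ± 0.11 between the weeks. At 3 weeks against naive mice it was -0.19 ± 0.11 and was not called, but with scaling by library totals it was -0.34 and was called. The difference between the weeks was no longer called with scaling by library totals, where it was 0.19, or without any single one of the one-week and three-week libraries, where it was 0.28 to 0.45. That at 1 week was not called without the second one-week library, where it was -0.50. Trem3 starts 853 bases beyond Trem1 and encodes another receptor that signals through DAP12. The TPM ratio of Trem1 to Trem3 was 1.31 in both naive libraries, 0.847 and 0.837 in one-week LL2 and 1.26 and 1.36 in three-week LL2 mice. The ratio of Trem1 to Tyrobp was 0.216 and 0.199 in naive, 0.0978 and 0.0921 in one-week LL2 and 0.151 and 0.158 in three-week LL2 mice.

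Of the TREM receptors, their ligands and signalling genes, 17 of 18 listed genes were tested, with 2 called higher and 1 lower at 1 week and 5 higher and 3 lower at 3 weeks against naive mice (median log2 fold change -0.01 and -0.14). Pglyrp1, whose product is a ligand of TREM-1, rose from 94.7 ± 19.2 CPM in naive to 289 ± 35.9 CPM in one-week LL2 mice (1.61 ± 0.15, adjusted p = 5.53e-05) and had 194 ± 4.12 CPM at 3 weeks (1.04 ± 0.15 against naive mice, adjusted p = 0.000265). Its level was thus highest in the group in which Trem1 was lowest. Cirbp, encoding a cold-inducible RNA-binding protein that is a ligand when released from cells, was higher at 3 weeks (1.33 ± 0.14, adjusted p = 2.82e-05), and Lat2, an adaptor of receptor signalling, rose from 12.4 ± 3.88 to 57.7 ± 9.58 CPM (2.22 ± 0.20, adjusted p = 8.79e-06). Treml4 and Treml1 were lower at 3 weeks (-1.02 ± 0.19, adjusted p = 0.00194 and -0.94 ± 0.18, adjusted p = 0.00212). Treml1 was also the gene called lower at 1 week (-0.85 ± 0.18, adjusted p = 0.0119). It is a gene of platelets, of whose 4 tested markers 1 was called lower at 1 week and 3 at 3 weeks. The part of platelets in the Treml1 level was not tested. Called shares of all tested genes were 4.23% higher and 3.76% lower at 1 week, and 12.0% and 9.42% at 3 weeks.

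**Figure D3:**
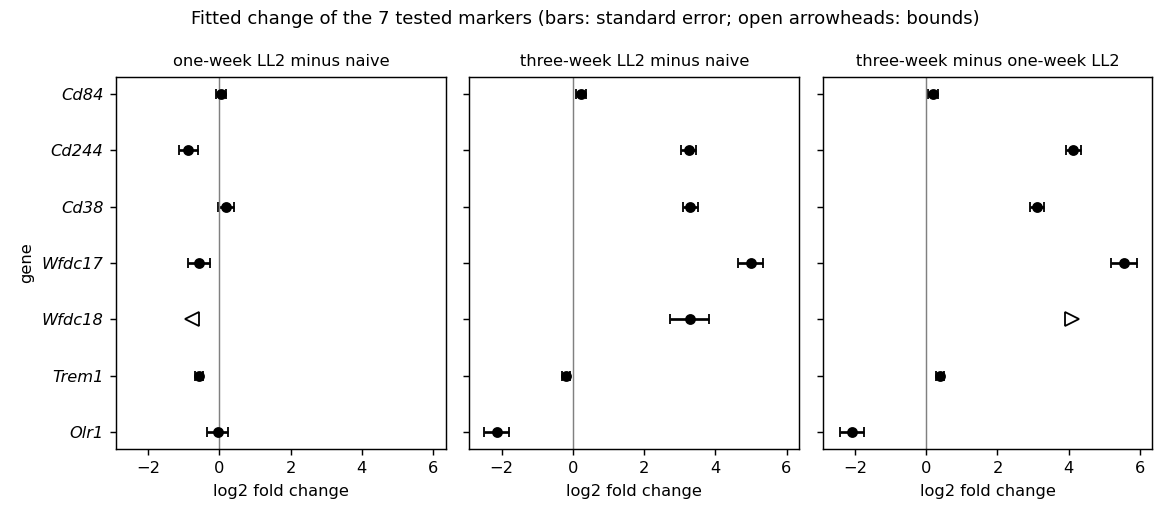
Fitted log2 fold changes on the x axis, with bars of 1 standard error, are plotted for the 7 tested members in the 3 comparisons (n = 2 per group). Open arrowheads are bounds for Wfdc18 against one-week LL2 mice, which had no counts. The 3-week panels place Wfdc17 furthest to the right among fitted values, at 4.99 and 5.56, and Olr1 to the left at -2.14 and -2.09, while the 1-week panel holds the 6 other fitted members within 1 unit of 0.

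Olr1 (ENSMUSG00000030162, chr6:129485244-129507165, minus strand) was the member called lower in three-week LL2 mice than in both other groups. It had 9.10 and 5.24 CPM in naive, 7.68 and 6.19 CPM in one-week LL2 and 1.40 and 1.85 CPM in three-week LL2 mice, from 115, 64, 115, 83, 18 and 24 counts. The naive and one-week libraries overlapped and both three-week libraries were below all 4. The log2 fold change was -2.14 ± 0.34 against naive mice, 4.41-fold lower, and -2.09 ± 0.34 against one-week LL2 mice, 4.26-fold lower. At 1 week against naive mice it was -0.05 ± 0.29, and it turned to 0.40 without the first naive and to 0.09 without the second one-week library. In the list of scavenger receptors, 13 of 17 genes were tested, and 4 were called higher and 0 lower at 3 weeks against naive mice, with a median log2 fold change of 0.44. These were Scarb1, the receptor of high-density lipoprotein (1.03 ± 0.20, adjusted p = 0.0025), Scarb2 of the lysosome (0.74 ± 0.15, adjusted p = 0.00337), Cd68 (0.55 ± 0.16, adjusted p = 0.0262) and the shedding protease gene Adam10 (0.77 ± 0.19, adjusted p = 0.0108). In the direction of Olr1, 0 of the 13 were called by edgeR or DESeq2 in any of the 3 comparisons, and at an unadjusted p under 0.05 there was 1, at 1 week. Of all tested genes, edgeR called 9.42% lower at 3 weeks and 3.76% at 1 week against naive mice, and 9.57% between the weeks. The share called higher at 3 weeks against naive mice was 12.0%. With 13 genes, nothing is read from these counts. Cd36 and Msr1, which also bind oxidized lipoprotein, were low throughout, with group means of 0.569 to 0.901 TPM and 0.183 to 0.265 TPM beside 2.81, 2.69 and 0.549 TPM for Olr1.

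Slc27a2 (ENSMUSG00000027359, chr2:126552407-126588243, plus strand) had 0 counts in 5 libraries and 1 count in the first three-week library. It was below the floor of 3 counts in every library, so no level and no fold is given, and a difference was not detectable at this depth. Of the other fatty acid transport proteins, Slc27a4 was the abundant one, with 95.4 and 87.7 TPM in naive, 76.9 and 73.4 TPM in one-week LL2 and 62.7 and 61.3 TPM in three-week LL2 mice (log2 fold change -0.37 at 3 weeks, adjusted p = 0.025), while Slc27a1, Slc27a3, Slc27a5 and Slc27a6 had at most 0.850 CPM as a group mean. In the list of fatty acid uptake, activation and prostaglandin E2 synthesis, 17 of 24 genes were tested, with 4 called higher and 4 lower at 3 weeks and 1 higher and 4 lower at 1 week against naive mice (median log2 fold change 0.06 and -0.22). Fabp5, which encodes a fatty acid binding protein, rose from 30.2 ± 4.54 CPM in naive to 45.4 ± 4.06 at 1 week (0.59 ± 0.14, adjusted p = 0.0232) and 99.1 ± 6.22 CPM at 3 weeks (1.72 ± 0.14, adjusted p = 3.52e-06). The acyl-CoA synthetase gene Acsl1 (-0.99 ± 0.12, adjusted p = 0.000127) and Ptgs1, which encodes cyclooxygenase-1 (-1.0 ± 0.14, adjusted p = 0.000225), were lower at 3 weeks. Called shares of all tested genes were 12.0% higher and 9.42% lower at 3 weeks, and 4.23% and 3.76% at 1 week.

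A list of other genes proposed for PMN-MDSC was read beside the members. Of 27 genes 25 were tested, with 0 called higher and 2 lower at 1 week (the same numbers with DESeq2, and 1 higher and 5 lower at an unadjusted p under 0.05), and 8 higher and 1 lower at 3 weeks against naive mice, at a median log2 fold change of 0.32. Il4ra, the interleukin-4 receptor chain, rose from 149 ± 39.8 to 733 ± 125 CPM (2.30 ± 0.18, adjusted p = 1.91e-06). Cebpb, a transcription factor of emergency granulopoiesis, rose from 326 ± 67.6 to 941 ± 17.0 CPM (1.53 ± 0.16, adjusted p = 3.56e-05). Nos2, encoding inducible nitric oxide synthase, had no counts at 1 week or without tumors and 7.60 and 5.31 CPM at 3 weeks, at least 26.7-fold above naive mice. Nos2 entered the test only through the three-week libraries, so its place among the genes called higher is a description. Arg1, the arginase gene often named with Nos2, had 0 counts in all 6 libraries. Over all 7 lists, 103 genes were tested. Against naive mice, 29 were called higher and 14 lower at 3 weeks and 3 higher and 8 lower at 1 week. Between the weeks, 31 were called higher and 11 lower. Of all tested genes, 12.0% and 9.42%, 4.23% and 3.76%, and 12.9% and 9.57% were called higher and lower in these comparisons. The lists were written with results of these data known, so nothing is read from the counts. With scaling by library totals only, which moved the median log2 fold change of all genes to -0.112 at 3 weeks against naive mice and to -0.225 between the weeks, the numbers were 24 higher and 19 lower at 3 weeks and 25 higher and 19 lower between the weeks. Under that scaling the calls over all genes were 890 higher and 1675 lower at 3 weeks against naive mice, beside 1471 and 1155, and 856 higher and 2136 lower between the weeks, beside 1586 and 1173. The direction of Wfdc17, Wfdc18, Cd244, Cd38 and Olr1 at 3 weeks was the same under every scaling tried.

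**Figure D4:**
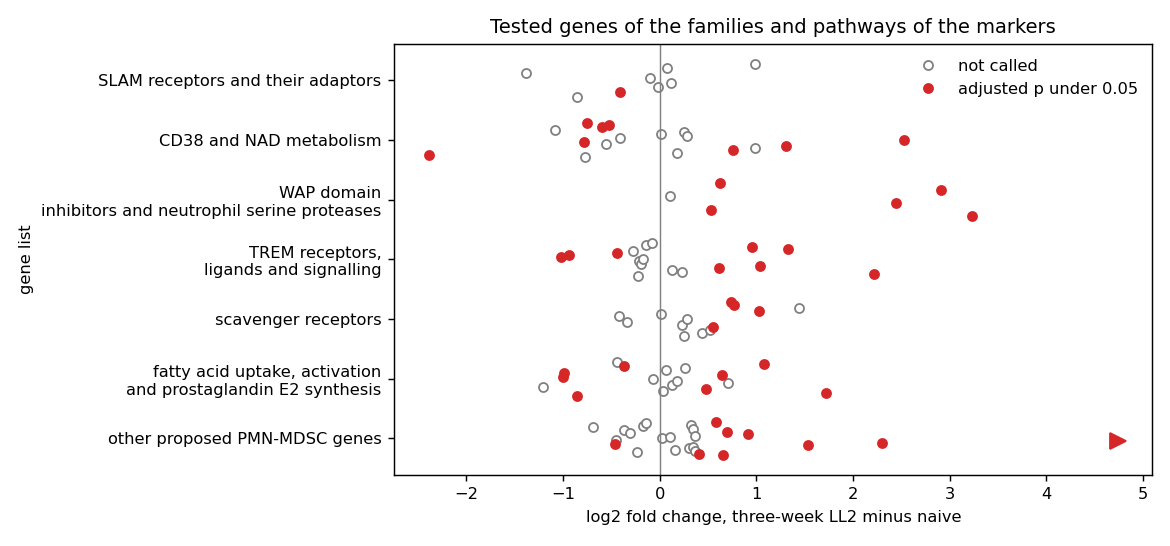
Each point is a tested gene of a list, with its log2 fold change between three-week LL2 and naive mice on the x axis, filled where edgeR's adjusted p was under 0.05 and open otherwise, and the arrowhead is the bound for Nos2. In the WAP and protease list 5 of 6 genes are filled and to the right, and in the NAD list 3 are filled to the right and 5 to the left.

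In order of TPM, naive mice had Trem1 (240 ± 2.79, SD), Wfdc17 (152 ± 82.7), Cd84 (31.2 ± 1.28), Olr1 (2.81 ± 1.26), Cd38 (1.79 ± 0.232), Cd244 (1.14 ± 0.150) and Wfdc18 (0.407 ± 0.0434), of which Olr1 and Cd38 did not differ beyond their spread. The order was the same in one-week LL2 mice. In three-week LL2 mice Wfdc17 came first (4310 ± 411), before Trem1 (184 ± 7.95), Cd84 (32.3 ± 7.81), Cd38 (15.4 ± 3.70), Cd244 (9.67 ± 0.0537), Wfdc18 (3.55 ± 0.324) and Olr1 (0.549 ± 0.119), with no overlap between neighbours. The summed TPM of the 8 genes was 374 and 484 in naive, 292 and 314 in one-week LL2 and 4840 and 4270 in three-week LL2 mice, and Wfdc17 made up 35.4%, 34.4% and 94.6% of the group means.

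Genes whose log2 CPM followed each member over the 6 libraries were listed among genes with a mean of at least 5 CPM. These correlations describe 6 libraries in 3 groups that share depth and group differences. Ifitm1, an interferon-inducible membrane protein gene, was nearest to Wfdc17 (r = 0.9993), with 194, 159 and 2560 CPM as the means of naive, one-week LL2 and three-week LL2 mice. Il13ra1, a receptor chain for interleukin-13 and interleukin-4, was nearest to Cd244 (r = 0.9966, with 17.6, 11.5 and 81.5 CPM). Asprv1, a retroviral-like protease gene, was nearest to Cd38 (r = 0.9982, with 101, 103 and 635 CPM). Lrch4 was nearest to Cd84 (r = 0.9697), Ubp1 to Wfdc18 (r = 0.9981), Eif2s2 to Trem1 (r = 0.9951) and Acad8 to Olr1 (r = 0.9956). Dctn2 and Zyx followed Ifitm1 for Wfdc17, Anapc16 and Zyx followed for Cd244, and Tmpo and Mcur1 for Cd38. Among the members, r was 0.989 between Cd244 and Wfdc17, 0.972 between Cd38 and Wfdc17, 0.958 between Cd244 and Cd38 and -0.99 between Olr1 and Wfdc17, values that the separation of the three-week libraries sets.

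**Figure D5:**
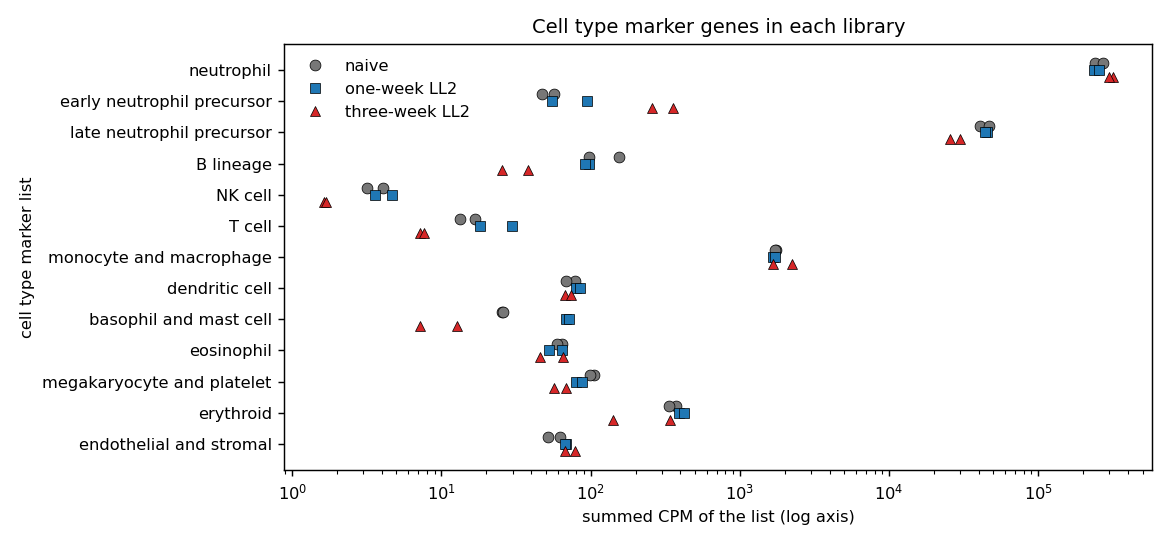
Summed CPM of each cell type marker list on a log x axis is plotted for each library (grey circles, naive; blue squares, one-week LL2; red triangles, three-week LL2). The early precursor sum is higher and the late precursor, B lineage, NK cell, T cell, basophil and platelet sums are lower in both three-week libraries than in all others, and the monocyte and macrophage sums overlap.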

How the data were processed

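RNA-seq of Ly6G-positive BM neutrophils was available as one gene-level table with 2 libraries in each of 3 groups. A figure legend of the study counts 3 samples per group, while the labels and columns of the table give 2. The authors deposited expected counts from RSEM as whole numbers, without scaling between libraries. Per the submitters' processing notes, reads were aligned with Bowtie2 and quantified with RSEM 1.2.31 on mm10, while the methods name another RSEM version, and the labels and the methods differ on read length. All 6 columns were mapped to samples by their names, and 0 columns were left out.

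The 8 members and all gene lists were chosen with earlier results of these data known. Symbols and exons came from the GENCODE annotation (GRCm38, the build called mm10), which matched 37570 of 38887 identifiers, and promoters from RefSeq (GRCm38.p6). Genes with low counts were removed by filterByExpr, TMM factors lay between 0.9134 and 1.0717, and groups were compared by the quasi-likelihood test of edgeR 4.0.16 in R 4.3.3 with all 6 libraries in one model. Benjamini-Hochberg adjusted p-values over all tested genes under 0.05 defined calls. TPM were computed from counts and total exon length, which RSEM's effective length would change for short genes such as Wfdc17. Folds against a group at 0 used a floor of 3 counts in each library. Replicate libraries varied more than counting noise, with chi-square values per degree of freedom of 9.043 to 12.551.

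Genes named were the members, up to 5 non-member genes of each list with the smallest adjusted p among those called, the 3 genes most correlated with each member, and summed marker lists. Other genes were named from the 7 pathway lists and 13 marker lists, and their neighbours in the genome, after their values were seen. Alternatives were DESeq2 1.42.0, its size factors, library totals in place of TMM, other filters and thresholds, a replicate block, fits of only the 2 groups compared, and fits without each library. The fits were tested on simulated data.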

Additional observations from a re-analysis of the deposited data

Results flagged for a closer look

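For 2 members, both libraries of one-week LL2 mice lay on one side of the naive libraries and both libraries of three-week LL2 mice on the other, and this difference was not tested. Cd244 had means of 4.07 CPM in naive, 2.25 CPM in one-week LL2 and 39.0 CPM in three-week LL2 mice, and Wfdc18 had 0.363, 0 and 3.59 CPM, of which the first is 4 and 5 counts.

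Of the 103 tested genes of the 7 pathway lists, 14 had the same pattern, 12 of them lower at 1 week and higher at 3 weeks and 2 the reverse. The share of all tested genes with this pattern was not counted, so nothing is read from these numbers. The 14 genes were picked for it, so the values are a description, with no test. For the 6 of these that the rule for named genes takes, the means in naive, one-week LL2 and three-week LL2 mice were as follows. In the direction of Cd244, Stat3 had 744, 534 and 991 CPM, and the chemokine receptor gene Cxcr2 had 514, 397 and 834 CPM. Plin2, which coats lipid droplets, had 102, 69.7 and 142 CPM, Cpt1a, which admits fatty acids to the mitochondrion, had 27.4, 18.2 and 42.7 CPM, and the shedding protease gene Adam17 had 54.0, 44.1 and 63.6 CPM. Treml4, a receptor gene beside Trem1, went the other way, with 13.1, 18.7 and 6.45 CPM. The remaining 8 were Hif1a, Arg2, S100a8, Acsl3, Acsl4, Treml2 and Msr1 in the direction of Cd244 and Ptgs2 in that of Treml4. Against naive mice, only Stat3, Plin2 and Cpt1a were called at both weeks. Cxcr2, Treml4 and Hif1a were called at 3 weeks only, and Arg2 at 1 week only. Adam17, Treml2, Acsl4, S100a8 and Ptgs2 were called against naive mice at neither week. Acsl3 and Msr1 were not called in any comparison.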

How the results depend on the processing

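Of 272 recomputed log2 fold changes of members, 250 kept their direction and their side of the threshold, 13 were no longer called, 4 became called and 5 turned in sign. The reversals were of members that were not called: Cd84 between the weeks (-0.02 with library totals, -0.05 to 0.41 without a library), Olr1 at 1 week (-0.39 to 0.40 without a library, 0.09 without the second one-week library) and Wfdc17 at 1 week (-1.09 to 0.23 without a library). The lower call of Wfdc18 at 1 week was lost with DESeq2 and without each of the 6 libraries. The 2 members called at 1 week became 1 with DESeq2, with only the 2 groups compared, with an adjusted p under 0.01 and with a fold over 5, 4 without a filter, and 0 to 1 when a library was left out. Of the pathway genes at 1 week, the 3 higher became 7 without a filter, 1 with an adjusted p under 0.01, 0 with a fold over 5 and 1 to 3 without a library, and the 8 lower became 4 with library totals, 2 with an adjusted p under 0.01, 0 with a fold over 5 and 0 to 10 without a library. At 3 weeks against naive mice, a fold over 5 left 5 of 29 higher and 1 of 14 lower, and an adjusted p under 0.01 left 9 lower. Between the weeks, a fold over 5 left 4 of 31 higher and 1 of 11 lower, and the lower genes became 19 with library totals, 6 with an adjusted p under 0.01 and 4 to 14 without a library. A replicate block left 5 members called at 3 weeks against naive mice and 6 between the weeks. The numbers denote different mice. The pairing check, over all tested genes, gave correlations of 0.01, 0.036 and 0.038 between libraries of the same number. Whether libraries of the same number were processed together was not tested. Depth limits Wfdc18 and Slc27a2, which had at most 5 counts in any naive or one-week library.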
